A study of Mus musculus with 8 samples.

Results

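The RNAs of 55 genes for spliceosome proteins and splicing factors were examined in mouse oocytes, of 15962 genes with a value in all 8 libraries. The members were taken by symbol, as every gene named Snrp, Sf3a, Sf3b, Srsf or Prpf and every LSm gene numbered from 1 to 12, with *Lsm14a*, *Lsm14b* and pseudogenes left out. In all, 56 symbols matched in any of the tables, and 1 of them was a pseudogene. The set held 8 Sm genes, 11 LSm genes, 4 genes for U1 and U2 snRNP proteins, 3 SF3a genes, 6 SF3b genes, 10 SRSF genes and 13 PRPF genes. The 19 Sm and LSm genes encode small proteins, with a median of 118 residues and a range of 76 to 361. The 36 other genes are called the larger factors here, with a median of 488 residues and a range of 86 to 2335. All 55 passed the filter on low values and were among the 13968 genes tested.

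A spliceosome is built from small nuclear ribonucleoproteins (snRNPs), each a small nuclear RNA with its proteins, which recognise the ends and the branch point of an intron. Sm proteins close into a ring of 7 around the U1, U2, U4 and U5 RNAs, and LSm proteins form related rings on U6 RNA in the nucleus and on deadenylated messenger RNA in the cytoplasm. A fully grown oocyte has stopped transcription, so that the RNAs of these proteins are maternal stores. Between the germinal vesicle (GV) stage and the second meiotic metaphase (MII), many stored RNAs lose their poly(A) tails and are degraded, whereas others gain a tail and are translated. BTG4 is an adaptor that brings the CCR4-NOT deadenylase to maternal RNAs in this period.

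The libraries came from 4 groups of 2, each library from 15 oocytes without zona pellucida. Control GV oocytes and control MII oocytes were cultured in vitro and carried no injected RNA. Btg4wt oocytes were MII oocytes that overexpressed Myc-tagged wild-type BTG4 from injected RNA. Btg4tm oocytes were MII oocytes that overexpressed a triple mutant with alanine in place of T145, S146 and S147. No group is described as lacking the endogenous *Btg4* gene. The comparison of MII with GV oocytes asks how these RNAs change in normal maturation, and that of Btg4tm with Btg4wt oocytes asks how the change depends on the 3 mutated residues. The labels do not say whether the 2 libraries of a group came from separate animals or cultures, so the p-values measure only the spread between these libraries.

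Levels are given as TPM, a share of each library after division by gene length, scaled between libraries by factors of 0.948 to 1.11. Changes are log2 fold changes of TPM + 1 from limma, with the standard error (SE) and a Benjamini-Hochberg adjusted p-value over the 13968 genes. A gene was called higher or lower when the adjusted p-value was under 0.05 and the absolute log2 fold change was over 1. Sequencing depth is unknown, since TPM do not keep it. The precision rests on the spread between the 2 libraries of a group, pooled over the 4 groups. Replicate libraries correlated across genes with Pearson's r of 0.982 to 0.987. The 9 oocyte markers summed to between 31749 and 46997 TPM per library. Of 17 cumulus and granulosa cell markers, 7 were listed in every table, and they summed to between 24.3 and 35.2 TPM, most of it *Cyp19a1*. Smart-seq2 primes on the poly(A) tail, so fewer molecules and shorter tails cannot be told apart in any comparison here. *Btg4* itself was at 2650 and 2794 TPM in GV, 5792 and 6002 TPM in MII, 5178 and 5510 TPM in Btg4wt and 3725 and 4068 TPM in Btg4tm oocytes. Neither injected group therefore stood above the MII oocytes in *Btg4* RNA. Whether these TPM count the injected RNA is not known, and protein was not measured here. The authors show overexpressed BTG4 protein of both constructs by immunoblot. They add that both constructs seemed to lower endogenous BTG4 protein, a point they leave to be clarified. Over 20% of the 50-base words of 12 members occur in transcripts of other genes (*Snrpf*, *Srsf4*, *Lsm7*, *Sf3b4*, *Lsm5*, *Srsf2*, *Srsf3*, *Snrpa*, *Snrpe*, *Srsf5*, *Snrpc* and *Snrpn*), so that their reads may have been lost or shared, and their values are less certain.

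Splicing factor RNAs moved in both directions during maturation. In MII against GV oocytes 14 of the 55 were higher and 11 were lower, while 12.5% of all genes tested were called higher and 24% lower. The median log2 fold change of the 55 was 0.27, against -0.00 for all genes. In Btg4tm against Btg4wt oocytes 11 were higher and 6 lower, with 18.1% of all genes called higher and 7.94% lower. Their median was -0.30 in that comparison, against 0.01 for all genes. The members called higher in MII, 25.5% of the 55, were the count farthest from that of all genes, and the other counts, 20% lower in MII, 20% higher and 10.9% lower with the mutant, lay nearer to it. The members with the lowest and the highest log2 fold change in MII, *Snrpd2* and *Snrpg*, encode subunits of the same protein ring.

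With another scaling the split changed. Scaled to the mitochondrially encoded RNAs, the median of all genes shifted to -1.74 in MII against GV and to 0.88 in Btg4tm against Btg4wt, and the calls became 0 higher and 45 lower, and 23 higher and 0 lower. On TPM as deposited, 9 members were higher and 12 lower in MII, as *Lsm7*, *Prpf38b*, *Prpf4b*, *Snrpn* and *Srsf10* came to between 0.88 and 0.94. With quantile normalization, where the median of all genes shifted to 0.28 in MII and -0.19 with the mutant, 18 were higher and 10 lower in MII and 9 higher and 12 lower with the mutant. Relative to those shifts, all 25 members called in MII and all 17 called in Btg4tm kept their direction. On deposited TPM and with mitochondrial scaling this was fixed in advance apart from the pseudocount, since each changes a library by 1 factor. It therefore cannot show that the split holds under those 2 scalings. Every direction below is therefore a direction relative to the bulk of oocyte RNAs.

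**Figure D1:**
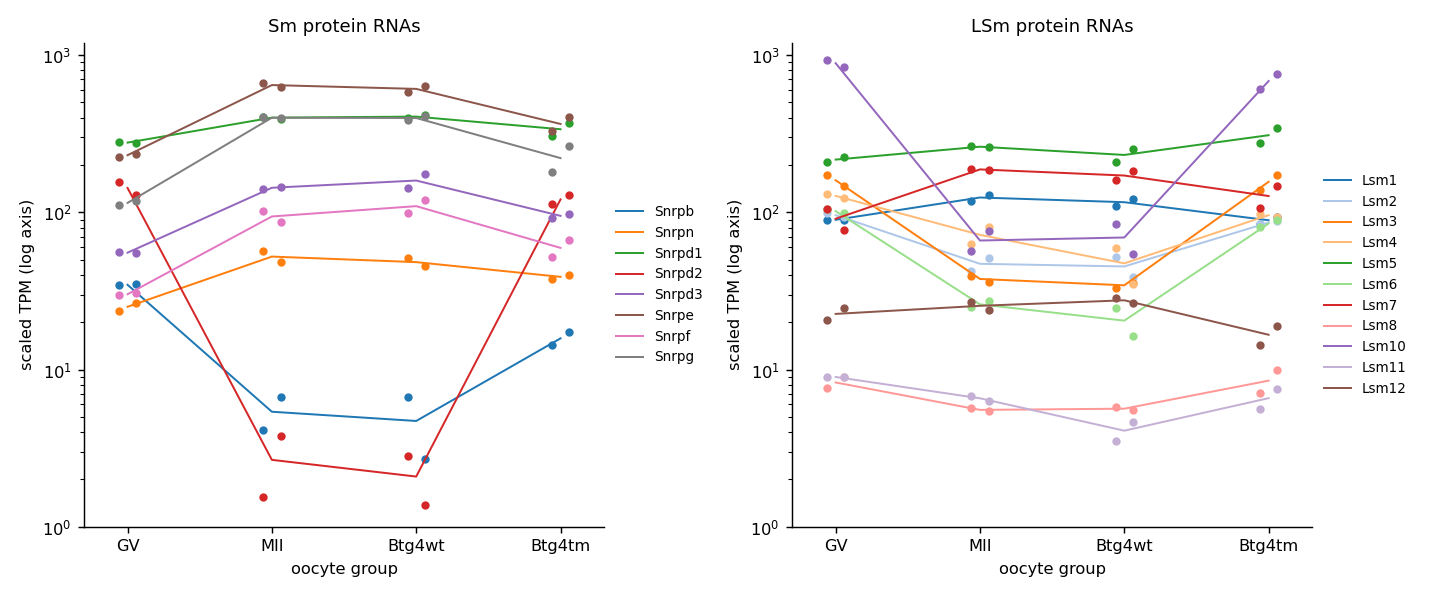
Scaled TPM (log axis) of the 8 Sm genes on the left and the 11 LSm genes on the right, with 1 point per library and lines through the group means of 2 libraries. Snrpd2 and Snrpb dip in MII and Btg4wt oocytes while the other Sm genes lie above their GV level there, and Lsm10 falls from 937 and 840 TPM in GV to 56.8 and 75.6 TPM in MII oocytes.

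Among the 7 RNAs of the Sm ring, 4 rose (57.1%) and 2 fell (28.6%) in maturation. Of all genes, 12.5% were called higher and 24% lower. *Snrpd2*, which encodes SmD2, had 157 and 129 TPM in the GV libraries and 1.55 and 3.78 TPM in the MII libraries. It had 2.81 and 1.37 TPM in the Btg4wt libraries and 113 and 128 TPM in the Btg4tm libraries. The MII and Btg4wt libraries thus held little of this RNA, and the Btg4tm libraries lay just below both GV libraries. The log2 fold change was -5.36 in MII against GV (SE 0.32, adjusted p = 3.9e-06) and 5.34 in Btg4tm against Btg4wt (SE 0.32, adjusted p = 6.5e-06). These changes ranged from -5.81 to -4.91 and from 5.0 to 5.68 when any 1 library was dropped. Values near 1 TPM are compressed on this scale, so both folds are understated. *Snrpd2* lies on chromosome 7 of GRCm38, from 19149722 to 19153542 on the plus strand.

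*Snrpb*, which encodes SmB, went the same way at a lower level. It had 34.4 and 34.8 TPM in GV, 4.11 and 6.68 TPM in MII, 6.73 and 2.69 TPM in Btg4wt and 14.3 and 17.2 TPM in Btg4tm oocytes. The Btg4tm libraries lay between the GV libraries and the Btg4wt libraries and overlapped neither. Its log2 fold change was -2.51 in MII against GV (SE 0.34, adjusted p = 0.0003) and 1.65 in Btg4tm against Btg4wt (SE 0.34, adjusted p = 0.0041). Against GV, Btg4tm oocytes were at -1.09 (SE 0.34, adjusted p = 0.074), which did not pass the test over all 8 libraries. *Snrpb* was called lower there in a fit of the 4 libraries compared (adjusted p = 0.042) and on deposited TPM (-1.25, adjusted p = 0.046). The same call came with mitochondrial scaling (-1.73) and when either Btg4wt replicate was dropped (-1.09 each time).

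The 4 RNAs that rose encode SmD3, SmE, SmF and SmG. *Snrpe* had 226 and 236 TPM in GV, 664 and 626 TPM in MII, 580 and 640 TPM in Btg4wt and 328 and 402 TPM in Btg4tm oocytes. *Snrpg* had 111 and 119 TPM in GV, 403 and 396 TPM in MII, 389 and 408 TPM in Btg4wt and 180 and 263 TPM in Btg4tm oocytes. In both genes the Btg4tm libraries lay between the GV libraries and the other MII oocytes, with no overlap on either side. The log2 fold change in MII was 1.48 for *Snrpe* (SE 0.12, adjusted p = 1.7e-05) and 1.79 for *Snrpg* (SE 0.16, adjusted p = 3.2e-05). *Snrpd3* had 55.5 and 55.2 TPM in GV, 142 and 145 TPM in MII, 144 and 175 TPM in Btg4wt and 92.5 and 97.5 TPM in Btg4tm oocytes, a log2 fold change of 1.36 in MII (SE 0.12, adjusted p = 2.4e-05). *Snrpf* rose by 1.61 in MII (SE 0.16, adjusted p = 4.8e-05), but 89.5% of its 50-base words occur in transcripts of other genes and 85.4% of its exons overlap another gene, so its value is uncertain. None of these 4 was called in Btg4tm against Btg4wt oocytes, where their log2 fold changes were -0.73 to -0.87 with adjusted p-values of 0.001 to 0.0025, past the p-value threshold and short of the fold threshold. *Snrpf* was called lower there without Btg4wt replicate 1 (-1.02), without Btg4tm replicate 2 (-1.04) and with quantile normalization (-1.11), and *Snrpg* without Btg4tm replicate 2 (-1.14) and with quantile normalization (-1.04).

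SmD1 and SmN complete this family. *Snrpd1*, for SmD1, had 280 and 275 TPM in GV, 407 and 394 TPM in MII, 397 and 415 TPM in Btg4wt and 306 and 369 TPM in Btg4tm oocytes, and was not called in any comparison. *Snrpn*, an imprinted gene for the SmB-like protein SmN, had 23.5 and 26.6 TPM in GV and 56.6 and 48 TPM in MII oocytes. It was called higher in MII with a log2 fold change of 1.03 (SE 0.14, adjusted p = 0.00025), a call that was lost without GV replicate 1, where the value was 0.94, and without MII replicate 1, where it was 0.91. Both the call and its loss rest on the minimum fold change, as the adjusted p-values without those libraries were 0.0029 and 0.0032.

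The ring of 7 Sm RNAs, taken without *Snrpn*, spanned a narrower range of levels in GV than in MII oocytes. The highest of the 7 was 9.4 and 9.03 times the lowest in the GV libraries, as a ratio of TPM. This ratio was 428 and 166 in the MII libraries, 207 and 468 in the Btg4wt libraries and 22.9 and 23.3 in the Btg4tm libraries. The lowest gene was *Snrpf* in GV, *Snrpd2* in MII and Btg4wt, and *Snrpb* in Btg4tm oocytes. The value of *Snrpf* is uncertain, as given above, and *Snrpd2* stood at only 1.37 to 3.78 TPM in the MII and Btg4wt libraries. These ratios thus depend on the least certain or lowest gene and describe the ring as a whole poorly. The summed level of the ring went from 893 and 880 TPM in GV to 1723 and 1659 TPM in MII oocytes, with 1618 and 1763 TPM in Btg4wt and 1087 and 1343 TPM in Btg4tm oocytes. An Sm ring takes 1 copy of each protein, but protein levels were not measured here.

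Of the 11 LSm RNAs, 4 were called lower (36.4%), 1 was called higher (9.09%) and 6 were not called in MII oocytes, where 24% of all genes were lower and 12.5% higher. *Lsm10* was the most abundant Sm or LSm RNA of GV oocytes, at 937 and 840 TPM. It had 56.8 and 75.6 TPM in MII, 83.8 and 54.6 TPM in Btg4wt and 605 and 763 TPM in Btg4tm oocytes. LSm10 and LSm11 replace SmD1 and SmD2 in the U7 snRNP, which cuts the 3′ ends of histone pre-mRNAs. The MII and Btg4wt libraries of *Lsm10* overlapped each other, and the GV and Btg4tm libraries lay apart from both and from each other. Its log2 fold change was -3.74 in MII against GV (SE 0.22, adjusted p = 3.8e-06) and 3.31 in Btg4tm against Btg4wt (SE 0.22, adjusted p = 1.2e-05). *Lsm11*, its partner, was at 9.01 and 8.93 TPM in GV, 6.8 and 6.33 TPM in MII, 3.5 and 4.67 TPM in Btg4wt and 5.6 and 7.56 TPM in Btg4tm oocytes and was not called in any comparison. In GV oocytes the lower *Lsm10* library was therefore at 840 TPM beside 9.01 TPM for the higher *Lsm11* library, both per gene length. *Lsm10* lies on chromosome 4, from 126096623 to 126098584 on the plus strand.

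LSm2 to LSm8 form the nuclear ring on U6 RNA, and LSm1 takes the place of LSm8 in the cytoplasmic ring that activates decapping. *Lsm3* had 172 and 148 TPM in GV, 39.2 and 36.2 TPM in MII, 33.1 and 35.6 TPM in Btg4wt and 139 and 173 TPM in Btg4tm oocytes. *Lsm6* had 105 and 98.6 TPM in GV, 24.9 and 27.1 TPM in MII, 24.6 and 16.4 TPM in Btg4wt and 80.5 and 89.3 TPM in Btg4tm oocytes. Both shared ring subunits fell in maturation and were higher with the mutant, and the GV and Btg4tm libraries of *Lsm3* overlapped. Their log2 fold changes were -2.05 and 2.15 for *Lsm3* (adjusted p = 7.5e-06 and 1e-05) and -1.93 and 2.02 for *Lsm6* (adjusted p = 3.7e-05 and 4.9e-05), in MII against GV and in Btg4tm against Btg4wt. *Lsm2* fell by 1.02 in MII (SE 0.16, adjusted p = 0.0006) and was at 0.93 in Btg4tm (SE 0.16, adjusted p = 0.0015), below the fold threshold, which it passed without Btg4wt replicate 1 (1.13). Its call in MII was lost without GV replicate 1 (-0.98), without MII replicate 1 (-0.89), and with length and GC trends removed (-0.08, adjusted p = 0.66).

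*Lsm4* was called higher in Btg4tm against Btg4wt oocytes, at 1.05 (SE 0.23, adjusted p = 0.0052), with 59.5 and 35.2 TPM in Btg4wt and 98.2 and 93.7 TPM in Btg4tm oocytes. That call rested on 1 library, since without Btg4wt replicate 2 the value was 0.68 (adjusted p = 0.019). In MII against GV it was at -0.83 (SE 0.23, adjusted p = 0.012) and was not called, except without MII replicate 2 (-1.01). *Lsm7* was the LSm RNA called higher in MII, at 1.05 (SE 0.18, adjusted p = 0.0012), from 105 and 77.4 TPM in GV to 188 and 187 TPM in MII oocytes. It was at 0.84 without GV replicate 2, short of the fold threshold, and 62.8% of its 50-base words occur in other transcripts. *Lsm1*, for the subunit particular to the cytoplasmic ring, had 89.4 and 90.0 TPM in GV and 119 and 130 TPM in MII oocytes. *Lsm8*, for the subunit particular to the nuclear ring, had 7.61 and 8.95 TPM in GV and 5.66 and 5.42 TPM in MII oocytes. Neither was called, and the RNA for the cytoplasmic subunit stood above that for the nuclear one in all 8 libraries. *Lsm5* had 209 to 343 TPM over the 8 libraries and *Lsm12* had 14.3 to 28.7 TPM, and neither was called.

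**Figure D2:**
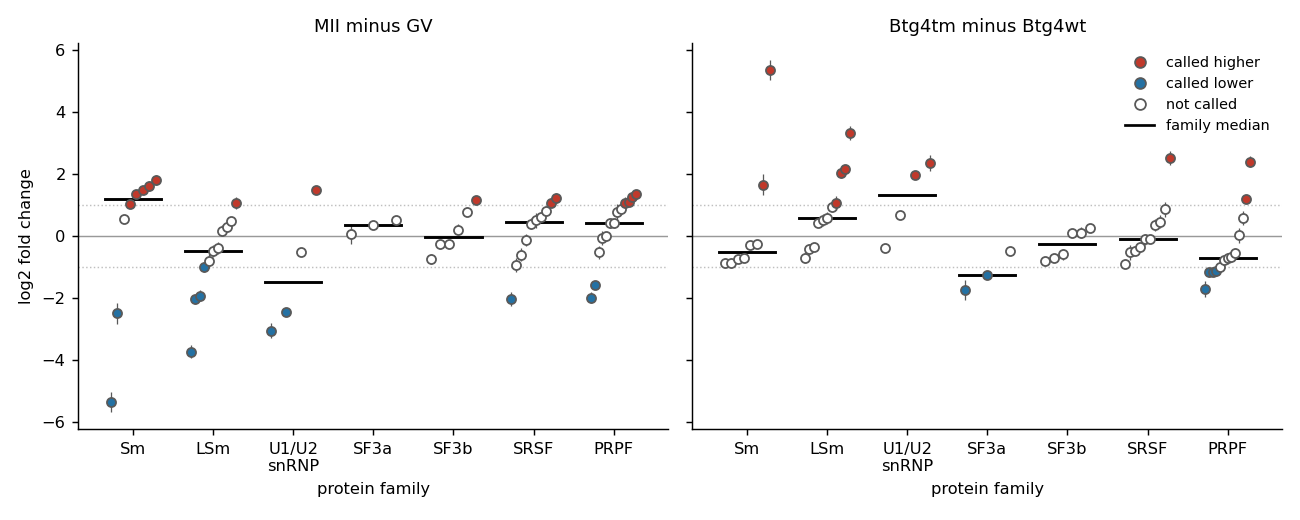
Log2 fold change of each member by protein family, in MII against GV oocytes on the left and in Btg4tm against Btg4wt oocytes on the right, with bars for the SE, dotted lines at the fold threshold and a black line at the family median. Sm genes split into 5 called higher and 2 called lower in MII, LSm genes have 4 called lower in MII and 4 called higher with the mutant, and the Sm, SF3a, SF3b, SRSF and PRPF medians are below 0 with the mutant.

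Of the RNAs for proteins particular to the U1 and U2 snRNPs, both U1 members fell in MII and were higher with the mutant, whereas 1 of the 2 U2 members rose in MII. Of all genes, 12.5% were called higher and 24% lower in MII, and 18.1% were called higher with the mutant. *Snrnp70*, for another U1 protein, which the symbol rule did not take in, went the other way from both U1 members. Its log2 fold change was 1.11 in MII (SE 0.16, adjusted p = 0.00037) and -2.12 in Btg4tm against Btg4wt (SE 0.16, adjusted p = 1.8e-05). The U1 RNAs therefore did not share 1 direction. *Snrpc*, for the C protein of U1, which steadies the pairing of U1 with the 5′ splice site, had 34.9 and 37.3 TPM in GV and 3.25 and 3.64 TPM in MII oocytes. It had 2.64 and 4.91 TPM in Btg4wt and 19.6 and 25.9 TPM in Btg4tm oocytes, so that the Btg4tm libraries lay below both GV libraries. Its log2 fold change was -3.06 in MII (SE 0.25, adjusted p = 1.8e-05) and 2.35 in Btg4tm against Btg4wt (SE 0.25, adjusted p = 0.00012). *Snrpa*, for the A protein of U1, which binds a stem-loop of U1 RNA, fell by 2.47 in MII (SE 0.14, adjusted p = 2.8e-06), from 81.4 and 89.7 TPM to 14.7 and 14.6 TPM. It was at 11 and 13.8 TPM in Btg4wt and 50.2 and 50.9 TPM in Btg4tm oocytes, a log2 fold change of 1.95 (SE 0.14, adjusted p = 1.6e-05). Both U1 members share about the same fraction of 50-base words with other transcripts, 26.7% for *Snrpc* and 31.1% for *Snrpa*.

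In the U2 particle, *Snrpb2*, for the B″ protein of U2, rose. It had 134 and 125 TPM in GV, 367 and 358 TPM in MII, 324 and 362 TPM in Btg4wt and 230 and 290 TPM in Btg4tm oocytes. Its log2 fold change was 1.48 in MII (SE 0.13, adjusted p = 2.4e-05) and -0.40 in Btg4tm against Btg4wt (SE 0.13, adjusted p = 0.028), where it was not called. *Snrpa1*, for the A′ protein of U2 that binds B″, had 79 and 77 TPM in GV, 54.6 and 53.1 TPM in MII, 51.6 and 51.6 TPM in Btg4wt and 84.1 and 81.6 TPM in Btg4tm oocytes. It was called in no comparison, although its GV and MII libraries did not overlap and its log2 fold change in MII was -0.53 (SE 0.10, adjusted p = 0.0017).

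SF3a and SF3b bind the branch point region together with U2. Of the 9 genes, *Sf3b1*, for the largest SF3b subunit, was the 1 called higher in MII, against 12.5% of all genes. It had 78.2 and 84.5 TPM in GV, 183 and 184 TPM in MII, 181 and 192 TPM in Btg4wt and 109 and 117 TPM in Btg4tm oocytes, with a log2 fold change of 1.17 in MII (SE 0.10, adjusted p = 2.2e-05). With length and GC trends removed this was 0.38 (adjusted p = 0.0096), short of the fold threshold. None of the 3 SF3a genes was called in maturation, and 2 were lower with the mutant, against 7.94% of all genes. *Sf3a1* had 45.6 and 57.5 TPM in GV, 65.4 and 65.9 TPM in MII, 83.6 and 83.6 TPM in Btg4wt and 31.6 and 36.7 TPM in Btg4tm oocytes. *Sf3a2* had 10.8 and 16.9 TPM in GV, 14.3 and 14.1 TPM in MII, 25.9 and 21.5 TPM in Btg4wt and 4.11 and 9.34 TPM in Btg4tm oocytes. The Btg4tm libraries of both genes were the lowest of all groups and did not overlap the GV libraries. In Btg4tm against Btg4wt the log2 fold change was -1.27 for *Sf3a1* (SE 0.14, adjusted p = 0.00014) and -1.76 for *Sf3a2* (SE 0.33, adjusted p = 0.0025). *Sf3a3* was at -0.51 in that comparison (SE 0.10, adjusted p = 0.0032) and was not called.

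Of the other SF3b genes, *Sf3b2* was at 0.77 in MII (SE 0.14, adjusted p = 0.0016) and -0.82 with the mutant (SE 0.14, adjusted p = 0.0016). *Sf3b3* was at -0.76 in MII (SE 0.17, adjusted p = 0.0052) and at 0.10 with the mutant. *Sf3b5*, which encodes a subunit of 86 residues, was at -0.28 in MII and 0.25 with the mutant. *Sf3b4* and *Sf3b6* lay between -0.27 and 0.19 in MII and between -0.60 and 0.08 with the mutant. None of these 5 was called in either comparison.

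**Figure D3:**
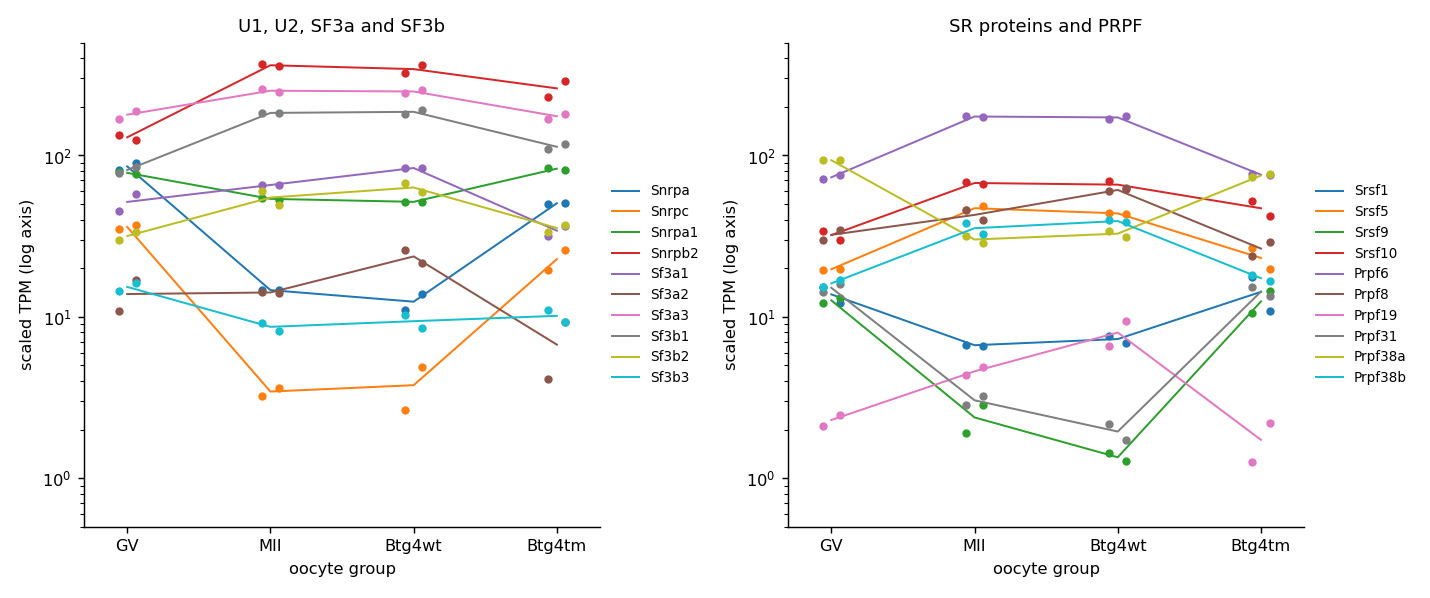
Scaled TPM (log axis) of 10 genes for U1, U2, SF3a and SF3b proteins on the left and of 10 genes for SR and PRPF proteins on the right, with 1 point per library and lines through the group means of 2 libraries. Snrpa, Snrpc, Srsf9, Prpf31 and Prpf38a dip in MII and Btg4wt oocytes, while Sf3a2 and Prpf19 are lowest in Btg4tm oocytes.

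SR proteins bind exonic enhancers and recruit U1 and U2. Of 10 genes, 2 were called higher (20%) and 1 lower (10%) in MII, against 12.5% and 24% of all genes. With the mutant 1 was called higher (10%) and 0 lower, against 18.1% and 7.94%. *Srsf9* had 12.2 and 13.1 TPM in GV, 1.91 and 2.85 TPM in MII, 1.43 and 1.27 TPM in Btg4wt and 10.5 and 14.4 TPM in Btg4tm oocytes. The Btg4tm libraries spanned the GV libraries, and its log2 fold change was -2.03 in MII (SE 0.22, adjusted p = 9.6e-05) and 2.51 with the mutant (SE 0.22, adjusted p = 5.2e-05). *Srsf5* rose from 19.5 and 19.9 TPM in GV to 45.6 and 48.6 TPM in MII oocytes, and *Srsf10*, whose protein acts as a splicing repressor when dephosphorylated, rose from 34.2 and 29.9 TPM to 68.3 and 66.7 TPM. Their log2 fold changes in MII were 1.21 (SE 0.15, adjusted p = 0.00019) and 1.05 (SE 0.14, adjusted p = 0.00026). The call of *Srsf10* was lost without GV replicate 2, at 0.96. With the mutant, *Srsf5* was at -0.90 and *Srsf10* at -0.48, and neither was called, though *Srsf5* was without Btg4tm replicate 1 (-1.11).

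*Srsf1*, for one of the best known SR proteins, had 15.3 and 12.2 TPM in GV, 6.71 and 6.63 TPM in MII, 7.65 and 6.92 TPM in Btg4wt and 17.7 and 10.8 TPM in Btg4tm oocytes. Its groups did not overlap in either comparison, but it was not called, with log2 fold changes of -0.94 (SE 0.23, adjusted p = 0.0081) and 0.85 (SE 0.23, adjusted p = 0.017). It was called lower in MII on deposited TPM (-1.08), with a pseudocount of 0.1 (-1.03) and without GV replicate 2 (-1.09), and higher with the mutant without Btg4tm replicate 2 (1.18). With length and GC trends removed it was called in both, at -1.72 and 1.41. *Srsf4* was at 0.50 and -0.53 with adjusted p-values of 0.11 in both, and 65.4% of its 50-base words occur in other transcripts. The other 5 SRSF genes lay between -0.61 and 0.81 in MII and between -0.35 and 0.45 with the mutant, with no call.

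PRPF proteins act at many steps of the spliceosome, and their RNAs included risers and fallers. *Prpf31*, for a U4/U6 protein that joins the tri-snRNP, had 14.3 and 15.9 TPM in GV, 2.85 and 3.23 TPM in MII, 2.17 and 1.73 TPM in Btg4wt and 15.2 and 13.4 TPM in Btg4tm oocytes. *Prpf38a*, for a protein needed for spliceosome activation, had 93.7 and 93.3 TPM in GV, 31.6 and 28.7 TPM in MII, 34.1 and 31.4 TPM in Btg4wt and 73 and 77.3 TPM in Btg4tm oocytes. The Btg4tm libraries of *Prpf31* overlapped the GV libraries, whereas those of *Prpf38a* lay below them. The log2 fold changes were -2.0 and 2.38 for *Prpf31* (adjusted p = 3.4e-05 and 2.4e-05) and -1.60 and 1.17 for *Prpf38a* (adjusted p = 8.3e-06 and 6.8e-05), in MII against GV and in Btg4tm against Btg4wt.

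Of the 13 PRPF genes, 4 were called higher (30.8%, against 12.5% of all genes) and 2 lower (15.4%, against 24%) in MII. With the mutant 2 were called higher (15.4%, against 18.1%) and 4 lower (30.8%, against 7.94%). Of the 4 called higher in MII, 3 are described. *Prpf6*, for the protein that bridges U5 and U4/U6, had 71 and 75.4 TPM in GV, 177 and 172 TPM in MII, 168 and 176 TPM in Btg4wt and 76.5 and 75.4 TPM in Btg4tm oocytes. The Btg4tm libraries stood at the GV level, and the log2 fold changes were 1.24 in MII (SE 0.09, adjusted p = 1.3e-05) and -1.17 with the mutant (SE 0.09, adjusted p = 3e-05). *Prpf38b* showed the same course, from 15.2 and 17 TPM in GV to 38.1 and 32.8 TPM in MII and from 39.9 and 38.6 TPM in Btg4wt to 18.1 and 16.6 TPM in Btg4tm oocytes. Its log2 fold changes were 1.09 (SE 0.14, adjusted p = 0.00019) and -1.13 (SE 0.14, adjusted p = 0.00024), and its call in MII was lost without MII replicate 1, at 0.98. *Prpf4b*, for a kinase of the tri-snRNP, was called in MII at 1.06 (SE 0.19, adjusted p = 0.0013), a call lost without GV replicate 1, at 0.91.

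*Prpf8* and *Prpf19* were called lower with the mutant but not in MII. *Prpf8*, for the protein at the catalytic centre, had 29.8 and 34.7 TPM in GV, 45.7 and 40 TPM in MII, 59.8 and 62.4 TPM in Btg4wt and 24 and 29 TPM in Btg4tm oocytes. *Prpf19*, for a ubiquitin ligase of the activated spliceosome, had 2.11 and 2.48 TPM in GV, 4.34 and 4.86 TPM in MII, 6.57 and 9.42 TPM in Btg4wt and 1.26 and 2.2 TPM in Btg4tm oocytes. Both genes were highest in the Btg4wt libraries, above both MII libraries. The log2 fold change with the mutant was -1.18 for *Prpf8* (SE 0.14, adjusted p = 0.00025) and -1.72 for *Prpf19* (SE 0.25, adjusted p = 0.00069). The call of *Prpf8* was lost with length and GC trends removed, at -0.35 (adjusted p = 0.043). The other 5 PRPF genes, *Prpf3*, *Prpf4*, *Prpf18*, *Prpf39* and *Prpf40b*, lay between -0.54 and 0.87 in MII and between -1.0 and 0.56 with the mutant, with no call.

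**Figure D4:**
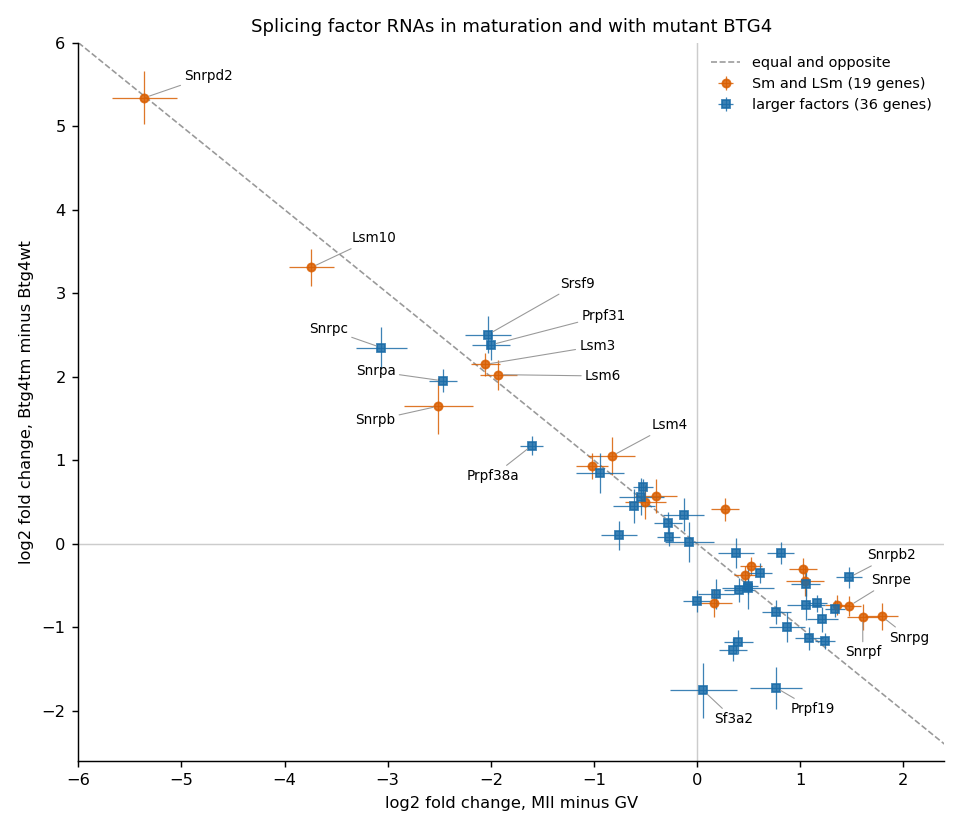
Log2 fold change in MII against GV (x axis) and in Btg4tm against Btg4wt (y axis) for the 19 Sm and LSm genes (circles) and the 36 larger factors (squares), with bars for the SE of each and a dashed line where both are equal and opposite. Most fallers lie near the line, most risers lie above it, and Sf3a2 and Prpf19 lie below it.

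Maturation (MII against GV) and the mutant effect (Btg4tm against Btg4wt) compare different libraries, and their calls are set side by side here. Both come from the same fit with a pooled spread, so a gene has the same SE in both. The calls are therefore not independent. Of the 11 members lower in MII, 10 were higher with the mutant, which is 90.9% of either list of 11. Over all genes, 70% of those lower in MII were higher with the mutant, and 92.5% of those higher with the mutant were lower in MII. Of the 14 members higher in MII, 2 were lower with the mutant, which is 14.3% of the 14 and 33.3% of the 6 that were lower with the mutant. The same shares over all genes were 26.5% and 41.9%. The 2 members were *Prpf6* and *Prpf38b*, and no member was called in the same direction in both comparisons.

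The size of the mutant effect was expressed as a share of the maturation change with its sign turned, on the log2 scale. It had a median of 90.9% over the 11 members lower in MII, with a range of 65.7% for *Snrpb* to 124% for *Srsf9*, and was 76.5% over all genes lower in MII. It had a median of 54.3% over the 14 members higher in MII, with a range of 27.3% for *Snrpb2* to 104% for *Prpf38b*, and was 52.1% over all genes higher in MII. Computed on scaled TPM instead, the medians were 83.4% and 68.1%, and the range of the fallers began at 37.9% for *Snrpb*. Since the members were called in MII to enter this share, its denominator was chosen to be large, and the share is a description without a test.

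Small Sm and LSm genes were then set against the larger factors. In MII against GV the median log2 fold change was 0.17 for the 19 Sm and LSm genes, with 6 higher (31.6%) and 6 lower (31.6%). It was 0.37 for the 36 larger factors, with 8 higher (22.2%) and 5 lower (13.9%), against 12.5% and 24% of all genes. In Btg4tm against Btg4wt it was 0.41 for the small class, with 6 higher (31.6%) and 0 lower. For the larger class it was -0.44, with 5 higher (13.9%) and 6 lower (16.7%), against 18.1% and 7.94% of all genes. The difference of the medians was 0.86 in that comparison and 0.64 to 0.96 when 1 library was left out. The small class split widely in MII, from -5.36 to 1.79, so its median lies in a gap between fallers and risers and moves easily. No test was made of this difference, because genes of a class are not replicates.

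Transcript length moved with this split. The median transcript had 943 bases in the small class and 3040 in the larger class, and 2484 over all genes tested with a gene model. After trends on length and GC content were removed in each library, the difference of the medians with the mutant was 0.22, of which 0.11 was the small class and -0.11 the larger class. Calls were both lost and gained with these trends removed. In MII, *Prpf4b* was at 0.15, *Srsf10* at 0.47, *Snrpn* at 0.94, *Prpf38b* at 0.83 and *Srsf9* at -0.98 once they were removed, all short of the threshold. With the mutant, *Snrpb* was at 0.77, *Lsm4* at 0.12, *Sf3a1* at -0.77, *Prpf38a* at 1.0 and *Prpf38b* at -0.98, also short of it. Calls gained in MII were *Srsf1* at -1.72, *Sf3b3* at -1.15, *Prpf19* at 1.26 and *Srsf4* at 1.01. Calls gained with the mutant were *Srsf1* at 1.41, *Lsm11* at 1.29, *Lsm7* at -1.15, *Snrpg* at -1.21 and *Srsf5* at -1.06. Split at 200 residues instead of by name, the 21 shorter and 34 longer members differed by 0.54. The part of transcript length in the difference between the classes cannot be told apart from that of protein family here. Without the 12 members that share over 20% of their 50-base words with other transcripts, the difference was 1.23 with the mutant, and -1.04 in MII, where it had been -0.20.

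By library, the levels of the classes moved in different ways. The median of the small class was 105 and 93.4 TPM in GV, 56.8 and 75.6 TPM in MII, 59.5 and 45.4 TPM in Btg4wt and 92.5 and 93.7 TPM in Btg4tm oocytes. The MII and Btg4wt libraries all lay below the GV and Btg4tm libraries. The median of the larger class was 28.2 and 29.4 TPM in GV, 26.7 and 26.2 TPM in MII, 31.3 and 30.4 TPM in Btg4wt and 23.1 and 24.3 TPM in Btg4tm oocytes, with the Btg4tm libraries lowest and the Btg4wt libraries highest. The summed level of the larger class was 1355 and 1474 TPM in GV, 1956 and 1908 TPM in MII, 1966 and 2068 TPM in Btg4wt and 1487 and 1593 TPM in Btg4tm oocytes. The most abundant larger factor was *Sf3a3* in both GV libraries and *Snrpb2* in the other 6.

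The 3′ ends of these RNAs were read to set the changes beside a sequence feature that the selection did not use. A U-rich element near the end is the binding site of CPEB1, which governs the tail length of stored RNAs in the oocyte. The form TTTTAT was searched, and with it the longer form TTTTAAT and the form of the same length that reads TTTTACT. The search ran on the transcript strand in the last 150 bases of the 3′ UTR of 1 GENCODE M21 transcript per gene, on GRCm38. The element was present in 19 of the 55 members (34.5%) and in 27.2% of 10938 genes tested with a 3′ UTR. It was present in 8 of 14 members higher in MII (57.1%), in 10 of 30 not called (33.3%) and in 1 of 11 lower in MII (9.09%). Over all genes, the shares were 43.3% of those higher in MII, 28.8% of those not called and 13.9% of those lower in MII, so the members follow the order of the transcriptome. Members with the element had a median log2 fold change of 0.49 in MII and -0.53 with the mutant, and members without it had -0.14 and 0.09. Over all genes, those medians were 0.47 and -0.21 with the element and -0.15 and 0.06 without it.

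**Figure D5:**
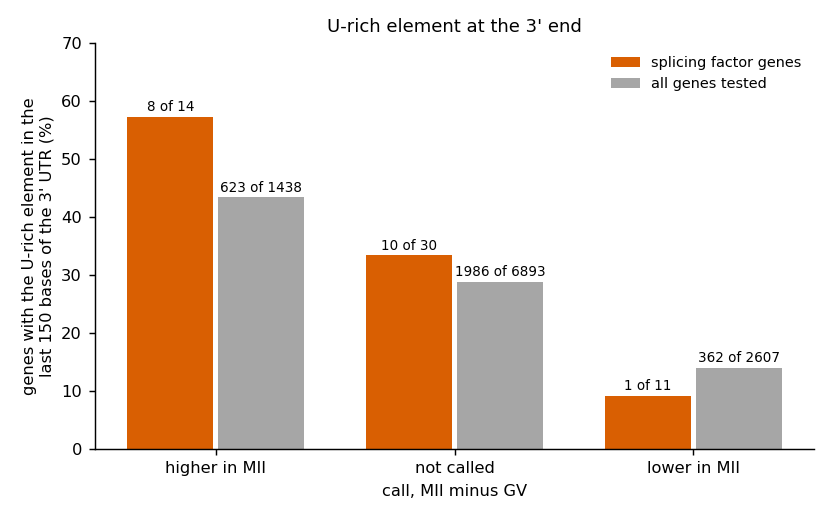
Percentage of genes with the U-rich element in the last 150 bases of the 3′ UTR (bars from 0), for splicing factor genes and for all genes tested, by their call in MII against GV, with the counts above the bars. In both sets the share is largest among genes higher in MII and smallest among genes lower in MII, at 57.1% and 9.09% for splicing factor genes.

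The windows of 30 bases that hold the element are shown for 6 of the 8 members higher in MII that carry it, as the reference sequence of GENCODE M21, written 5′ to 3′ with the U-rich element and any AATAAA hexamer, the signal for cleavage and polyadenylation, in capitals.
Snrpd3: ctgtttggtttaTTTTATtgtattAATAAA
Snrpe: ttactcaacttgTTTTACTtgcacattatt
Sf3b1: tttatattgtatTTTTAATatttgttgtat
Prpf6: cTTTTACTcattaaaggtTTTTATagagtt
Srsf5: gcttaatatgagTTTTACTtgttagggtca
Srsf10: aggcatgtaaatTTTTATtagtaacagtag

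The window of *Prpf6* holds the element at 2 places. The window of *Lsm3*, the 1 member lower in MII with the element, is shown for contrast, with those of 4 members lower in MII that hold only the hexamer.
Lsm3: aaattaaatttgatgtttccttTTTTATta
Lsm2: tggaaagatctgtcccgcatcgggAATAAA
Snrpb: ctgtggcctatgaagctggtttatAATAAA
Snrpc: ttcacttatattgtgaaatgtgaaAATAAA
Prpf31: tgtcttgaaaaaccccaaaaccaaAATAAA

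In *Lsm3* the element lies in the last 30 bases of the annotated transcript, and no AATAAA stood in its last 40 bases. A match describes the annotated 3′ end only, and the ends used in these oocytes were not measured.

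Btg4wt oocytes did not differ from uninjected MII oocytes by the call rule. No member was called in either direction, and 0% of all genes were called higher or lower by limma. At an unadjusted p-value under 0.05, 7 of the 55 members and 1655 of the 13968 genes passed, that is, 12.7% and 11.8%. The smallest adjusted p-value of a member was 0.28, for *Prpf8*, at 0.51 (SE 0.14). Of the 55 members, the Btg4wt libraries of 28 overlapped the MII libraries, those of 14 lay above them and those of 13 below. All 8 Sm genes overlapped, while 6 of the 11 LSm genes lay below. The same shares over all genes are not given here. SF3a genes were at -0.02 to 0.70 and LSm genes at -0.63 to 0.11 in this comparison, and dropping any 1 library gave 0 calls each time.

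Btg4tm oocytes, which are MII oocytes, were also set against GV oocytes. Again 0 of the 55 members were called by limma, while 1.02% of all genes were called higher and 1.02% lower. At an unadjusted p-value under 0.05, 25 of 55 members (45.5%) and 29.7% of all genes passed. Without the minimum fold change, 1591 of the 13968 genes and 14 of the 55 members passed at an adjusted p-value under 0.05. Of these members, 12 were higher and 2 lower. Of the Sm genes, 5 of these were higher: *Snrpd3* by 0.77, *Snrpe* by 0.65, *Snrpf* by 0.95, *Snrpg* by 0.92 and *Snrpn* by 0.61 on the log2 scale. *Snrpb2* was at 0.99 (SE 0.13, adjusted p = 0.0052), just short of the fold threshold, and it was called without GV replicate 1, at 1.04, and without Btg4tm replicate 1, at 1.16. Leaving out 1 library at a time, 0 to 3 members were called higher and 0 to 1 lower. *Snrpa* was at -0.75 (SE 0.14, adjusted p = 0.014) and *Sf3a1* at -0.57 (SE 0.14, adjusted p = 0.036). This comparison shares its libraries with the others and is no separate evidence.

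Other RNAs of the splicing pathway were read from lists. Among 67 other snRNP and spliceosome core factors, 14 were higher (20.9%) and 16 lower (23.9%) in MII, against 12.5% and 24% of all genes. With the mutant 13 were higher (19.4%) and 8 lower (11.9%), against 18.1% and 7.94% of all genes. *Zmat5*, for a protein of the minor spliceosome, was at 72.8 and 60.0 TPM in GV, 2.05 and 1.64 TPM in MII, 0.888 and 0.792 TPM in Btg4wt and 39.9 and 55.8 TPM in Btg4tm oocytes, with a log2 fold change of 4.71 with the mutant (SE 0.21, adjusted p = 1.9e-06). *Ppie*, for a cyclophilin of the spliceosome, was at 4.38 (SE 0.16, adjusted p = 9e-07). Among 16 tested genes for snRNP assembly and import, 2 were higher (12.5%) and 6 lower (37.5%) in MII. With the mutant 4 of them were higher (25%) and 0 lower. *Gemin7*, for a protein of the SMN complex that loads Sm rings, had 520 and 506 TPM in GV, 22.2 and 21 TPM in MII, 22.6 and 20.7 TPM in Btg4wt and 301 and 352 TPM in Btg4tm oocytes. *Clns1a*, for the chaperone pICln that holds Sm proteins before assembly, was at -2.66 in MII (SE 0.17, adjusted p = 4.9e-06) and at 2.07 with the mutant (SE 0.17, adjusted p = 2.9e-05). *Gemin7* and *Clns1a* were thus called in the same directions as *Snrpd2* and *Snrpb*, and in MII opposite to *Snrpd3*, *Snrpe*, *Snrpf* and *Snrpg*. They have the largest changes among the 4 of 16 called with the mutant, in a list that ranged from -1.15 to 3.85.

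Decapping partners of the cytoplasmic LSm ring formed another list. Of 7 tested genes, 4 were higher and 1 lower in MII, against 12.5% and 24% of all genes, and 0 were higher and 4 lower with the mutant, against 18.1% and 7.94%. *Dcp2*, for the decapping enzyme, had 18.1 and 24 TPM in GV, 52 and 50.8 TPM in MII, 56.7 and 60.6 TPM in Btg4wt and 16.5 and 18.5 TPM in Btg4tm oocytes, and its log2 fold change with the mutant was -1.69 (SE 0.15, adjusted p = 5.5e-05). *Ddx6*, for a helicase of stored and decaying RNAs, was at -1.51 (SE 0.18, adjusted p = 0.00025). Among 25 tested hnRNP genes, 6 were higher (24%) and 0 lower in MII, and 0 were higher and 3 lower (12%) with the mutant. *Hnrnpa2b1* was at 1.52 in MII and -1.49 with the mutant (SE 0.15 in both), and *Hnrnpa3* at 1.08 and -1.32 (SE 0.16 in both). Of 9 exon junction complex genes, 5 were higher (55.6%) and 3 lower (33.3%) in MII, and 3 were higher (33.3%) and 1 lower (11.1%) with the mutant. *Rbm8a*, for the core protein Y14, was at 1.59 with the mutant (SE 0.13, adjusted p = 3.1e-05) and *Sap18* at 1.7 (SE 0.16, adjusted p = 6.5e-05). Of 11 SR protein kinases and phosphatase-side regulators, 3 were higher (27.3%) and 2 lower (18.2%) in MII. With the mutant 2 were higher (18.2%) and 1 lower (9.09%). The 2 higher were *Clk4*, an SR protein kinase, at 1.39 (SE 0.20, adjusted p = 0.00065), and *Ppm1g*, a phosphatase, at 1.07 (SE 0.32, adjusted p = 0.022). In both comparisons, the lists' counts describe these libraries and were not tested against other genes.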

How the data were processed

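Poly(A) RNA of 8 oocyte libraries, 2 per group, was analysed; the labels' protocol names 3 samples per group. The authors trimmed reads with Trim Galore 0.6.10, aligned them to GRCm38 with HISAT2 2.2.0 and counted them with featureCounts 2.0.6 on GENCODE annotation without strand, dropping low mapping quality, so near-identical or antisense genes lose or share reads. The authors deposited TPM per gene; gene lengths and listing filter are not given in the sources used here. The authors tested their counts with DESeq2, which TPM do not permit.

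Here, TPM were scaled by the median of ratios, filtered at 1 TPM in at least 2 libraries (13968 of 15962 genes) and fitted as log2(TPM + 1) with limma 3.58.1 in R 4.3.3 (1 coefficient per group, all 8 libraries, eBayes with trend). P-values were adjusted by Benjamini-Hochberg; a gene was called below 0.05 with a log2 fold change beyond 1 in either direction. On simulated data of 13968 genes for Btg4tm against Btg4wt, 48 of 50 genes raised by a log2 change of 3 and 43 of 50 raised by 1.5 were called. Of lowered genes, 49 of 50 at a change of 3 and 36 of 50 at 1.5 were called. The changed genes had a mean log2(TPM + 1) over 2, and the normal noise had no floor. These rates therefore do not carry over to genes near the floor. Gene models, lengths and 3′ ends came from GENCODE M21 on the same build.

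Named were all Sm and LSm genes; per other family the 2 highest and 2 lowest in Btg4tm over Btg4wt (all in families under 5); members called higher in MII, lower in Btg4tm, or in the other comparisons; 2 called genes per pathway list with the largest change; and *Btg4*. The other members were named to account for all 55, except 1 gene that, like 1 sequence window, is not reported here. *Snrnp70*, from a pathway list, was named in addition, beside the U1 members. Members and lists were chosen with earlier results of these data known. Same-numbered replicates did not deviate together (r of -0.05 to 0.06), and the labels do not pair them. No protein sequences were used.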

Additional observations from a re-analysis of the deposited data

How the results depend on the processing

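Each value was recomputed with one choice changed at a time. For the values these were the unscaled TPM, quantile normalization, scaling on the genes encoded in mitochondria, and 0.1 as pseudocount. Genes were left unfiltered or filtered at 5 TPM. The fit used just the 4 libraries compared, a replicate block, or eBayes with no trend, and length and GC trends were removed. Calls were made at 0.01 or without a fold limit, classes were cut by protein length, and returned shares were taken on a linear scale. Dropping 1 library at a time kept a pooled spread, which assumes that the lone library varies like the others. Leaving out the 12 members with shared sequence was added after seeing the data. Of 402 summary values, 343 stayed within the replicate spread or 1.5 times the count, and of 3520 values of single genes 3352 kept direction and call. With the replicate block the members called stayed 14 higher and 11 lower in MII and 11 higher and 6 lower in Btg4tm, and no call of a named gene changed. The causes of the changes below were not tested, apart from those that a setting makes by itself. The deposited TPM carry no depth, and 2 libraries per group limit each value.

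Scaling to mitochondrially encoded genes changed most. It gave 0 higher and 45 lower in MII, 23 higher and 0 lower in Btg4tm against Btg4wt, and 11 lower in Btg4tm against GV. The medians of the small and the larger class became -1.96 and -1.70 in MII, 1.44 and 0.63 with the mutant, 0.39 and 0.51 in Btg4wt against MII, and -0.64 and -0.58 in Btg4tm against GV. It turned 25 genes to lower in MII, among them Btg4 (-1.10), Snrpd1 (-1.69), Snrpd3 (-0.84), Snrpe (-0.73), Snrpf (-0.57), Snrpg (-0.42), Snrpn (-1.13), Lsm1 (-1.73), Lsm5 (-1.94), Lsm7 (-1.15), Lsm12 (-1.96), Snrpb2 (-0.73), Sf3a1 (-1.83), Sf3a2 (-2.0), Sf3a3 (-1.71), Sf3b1 (-1.03), Sf3b2 (-1.40), Srsf4 (-1.47), Srsf5 (-0.93), Srsf10 (-1.12), Prpf4b (-0.98), Prpf6 (-0.96), Prpf8 (-1.76) and Prpf38b (-1.04). With quantile normalization the class medians were 0.38 and 0.59 in MII, the larger class was at -0.63 with the mutant and 0.0683 in Btg4wt against MII, and 12 members were lower with the mutant. On deposited TPM 9 were higher in MII, the larger class was at 0.21 in MII and -0.12 in Btg4tm against GV, and 1 was lower there, as in the fit of only the 4 libraries of that comparison. No minimum fold change gave 24 higher in MII, 25 lower with the mutant, and 12 higher and 2 lower in Btg4tm against GV. With length and GC trends removed the larger class was at 0.0226 in MII and -0.11 with the mutant, the small class at 0.11 and their difference at 0.22. The 5 TPM filter put the larger class at -0.50 with the mutant. By protein length, the shorter members were at 0.0816 with the mutant and the difference at 0.54. The linear scale put the median returned shares at 68.1% and 83.4%. Without members that share sequence, 9 were higher in MII, and the class difference was -1.04 in MII and 1.23 with the mutant.

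With 1 library dropped at a time, the larger class had a median of 0.20 to 0.44 in MII, -0.44 to -0.38 with the mutant, 0.0474 to 0.15 in Btg4wt against MII and -0.0341 to 0.10 in Btg4tm against GV. The class difference with the mutant was 0.64 to 0.96. In Btg4tm against GV, 0 to 3 members were higher and 0 to 1 lower.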
